A study of Mus musculus with 11 samples.

Results

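The genes described here are 10 immediate early and AP-1 genes of the mouse, taken by name from the 56941 genes counted in a study of pituitary cells: Fos, Fosb, Fosl1, Fosl2, Jun, Junb, Jund, Egr1, Atf3 and Ier3. All 10 passed the filter on low counts that 20622 genes passed. RNA was sequenced from pituitary cells isolated by fluorescence-activated sorting, in 5 libraries labelled APC-mutant (numbered 1, 2, 4, 5 and 6) and 6 libraries labelled wildtype (numbered 1 to 6). The stated purpose of the comparison was to find the genes that respond to oncogenic APC in pituitary tumours, with wildtype pituitary stem cells as the other side.

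The APC-mutant library names begin with JS and carry the word Lef1, and the wildtype names begin with ROSAJC (numbers 1 to 4) or ROSAE (numbers 5 and 6). The labels give no meaning for these words, no allele, no promoter or Cre driver, no age and no sorting gate. Nothing says that each library is a different mouse, and each p-value therefore reflects the scatter of these libraries, part of which can be technical. The name prefix and the genotype coincide and cannot be told apart. In bulk samples such as these, fewer cells of a type and less RNA per cell cannot be told apart either.

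Immediate early genes are transcribed within minutes of a stimulus, without new protein synthesis, and their messages are usually short-lived. FOS and JUN proteins are basic leucine zipper (bZIP) factors that bind DNA as dimers, called AP-1. JUN proteins can pair with one another, whereas FOS proteins need a JUN partner. EGR1 is a zinc-finger factor and ATF3 a bZIP factor of the same early response, and IER3 is a small protein of the early stress response that affects cell survival. Growth factor and stress kinases activate these genes through factors such as the serum response factor and the ELK factors, and the same genes are known to be induced while tissue is dissociated into single cells.

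Promoter sequence is shown for the member with the highest level, Fos, and for the members that passed the test under every setting tried, Jun, Fosl2 and Ier3. Each is the 250 bases before the gene's start in RefSeq, on GRCm38.p6, given 5′ to 3′ on the strand of the gene. Capitals mark matches to the motifs searched, on either strand.
Fos, chr12:85473640-85473889, plus strand: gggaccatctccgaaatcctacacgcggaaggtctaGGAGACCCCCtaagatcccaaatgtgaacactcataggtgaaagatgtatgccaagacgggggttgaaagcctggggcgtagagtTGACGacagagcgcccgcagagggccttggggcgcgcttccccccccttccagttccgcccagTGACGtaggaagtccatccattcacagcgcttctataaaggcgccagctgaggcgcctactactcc
Jun, chr4:95052223-95052472, minus strand: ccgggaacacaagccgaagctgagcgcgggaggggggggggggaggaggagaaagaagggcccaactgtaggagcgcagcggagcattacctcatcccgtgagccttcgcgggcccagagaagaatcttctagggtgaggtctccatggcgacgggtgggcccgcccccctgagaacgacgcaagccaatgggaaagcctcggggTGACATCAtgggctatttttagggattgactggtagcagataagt
Fosl2, chr5:32136222-32136471, plus strand: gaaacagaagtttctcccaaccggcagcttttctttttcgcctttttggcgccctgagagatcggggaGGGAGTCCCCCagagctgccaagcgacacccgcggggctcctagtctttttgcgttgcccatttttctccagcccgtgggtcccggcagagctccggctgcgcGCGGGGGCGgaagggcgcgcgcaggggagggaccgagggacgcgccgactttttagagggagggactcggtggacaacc
Ier3, chr17:35821463-35821712, plus strand: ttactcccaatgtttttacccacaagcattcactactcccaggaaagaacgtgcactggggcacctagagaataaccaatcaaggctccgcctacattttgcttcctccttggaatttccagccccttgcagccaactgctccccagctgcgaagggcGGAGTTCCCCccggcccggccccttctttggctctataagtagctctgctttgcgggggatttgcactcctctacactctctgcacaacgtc

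The Fos window held the letters TGACG, the core of a cyclic AMP response element, at bases -129 to -125 and -66 to -62 counted from the start. TGACG also stood in the windows of Fosb, Junb and, on the other strand, Atf3, and in 17.8% of all 32851 windows of that length. The Jun window held TGACATCA at bases -45 to -38, a match to TGACNTCA, which 7.49% of all windows held. A kappa-B site (3.9% of all windows) stood in Ier3 at bases -92 to -83, in Fosl2 as overlapping matches at -182 to -173 and -181 to -172, and in Fos and Fosb. The letters GCGNGGGCG, close to the sequence that EGR factors bind, stood in Fosl2 at bases -79 to -71 and in Fosb at -50 to -42, and in 4.7% of all windows. No AP-1 site TGANTCA (6.75%), CArG box (1.47%) or TCF/LEF core CTTTGAT (3.21%) was found in the 8 member windows used, and Jund held none of the motifs. Sequence beyond these 250 bases was not searched, and neither was Fosl1 or Egr1. The absence therefore holds for these windows only, not for the promoters as a whole. The motifs were chosen with the sequences in view, and a match is a description of letters, not evidence of binding.

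The depth of the genotypes overlapped, with totals of 18082332 to 27280761 counts per APC-mutant library and 15740857 to 25414443 per wildtype library. Apc itself was at 45.6, 41.6, 42.4, 37.8 and 44.5 CPM (counts scaled to the size of the library) in APC-mutant libraries and between 39.3 and 47.4 CPM in wildtype libraries, with no difference past the threshold (log2 fold change -0.03 ± 0.10 SE, adjusted p = 0.819, edgeR). No source used here gives the altered stretch of the gene, and this level does not check the labels. Pituitary stem cell markers made up 0.113% to 0.152% of counts in APC-mutant libraries and 0.129% to 0.177% in wildtype libraries. All 10 endothelial markers, all 10 macrophage and immune markers, all 10 mesenchymal markers and all 7 erythroid markers were higher in APC-mutant libraries. The endothelial markers summed to 0.409% to 0.627% of counts in APC-mutant and 0.00174% to 0.00994% in wildtype, and the macrophage and immune markers to 0.0265% to 0.174% in APC-mutant and 0.00195% to 0.00565% in wildtype. The mesenchymal markers summed to 0.0741% to 0.33% in APC-mutant and 0.0129% to 0.0285% in wildtype, and the erythroid markers to 0.208% to 0.39% in APC-mutant and 0.00013% to 0.00371% in wildtype. All 12 endocrine markers were lower, at 0.0179% to 0.149% of counts in APC-mutant and 6.17% to 9.81% in wildtype, although the comparison names wildtype stem cells. Of 8 posterior lobe and glial markers tested, 1 was higher and 1 lower, with ranges of 0.00967% to 0.036% in APC-mutant and 0.00706% to 0.0427% in wildtype. Among these markers, Slc4a1 of red cells alone had no count in a whole genotype, the wildtype. The part of these marker differences in each result below was not tested.

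In the members, 4 were higher in APC-mutant cells at an adjusted p under 0.05, none was lower, and 6 did not pass. The 4 were Jun, Junb, Fosl2 and Ier3. No member was lower at an unadjusted p under 0.05 in edgeR, nor by DESeq2 or limma-voom at the adjusted threshold. Across all genes tested, 59.2% passed, 30.7% as higher and 28.5% as lower, so that a count of 4 of 10 higher lies near the share for all genes. The APC-mutant libraries all lay above all wildtype libraries for 2 members, Fosl2 and Ier3, which 23% of all genes tested did, and for no member below, which 20% of all genes did (43% in either direction). The median log2 fold change of the 10 members was 0.58, against 0.02 for all genes tested. Every log2 fold change is for APC-mutant over wildtype, and each p is edgeR's quasi-likelihood p, adjusted by Benjamini-Hochberg over all 20622 genes.

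**Figure D1:**
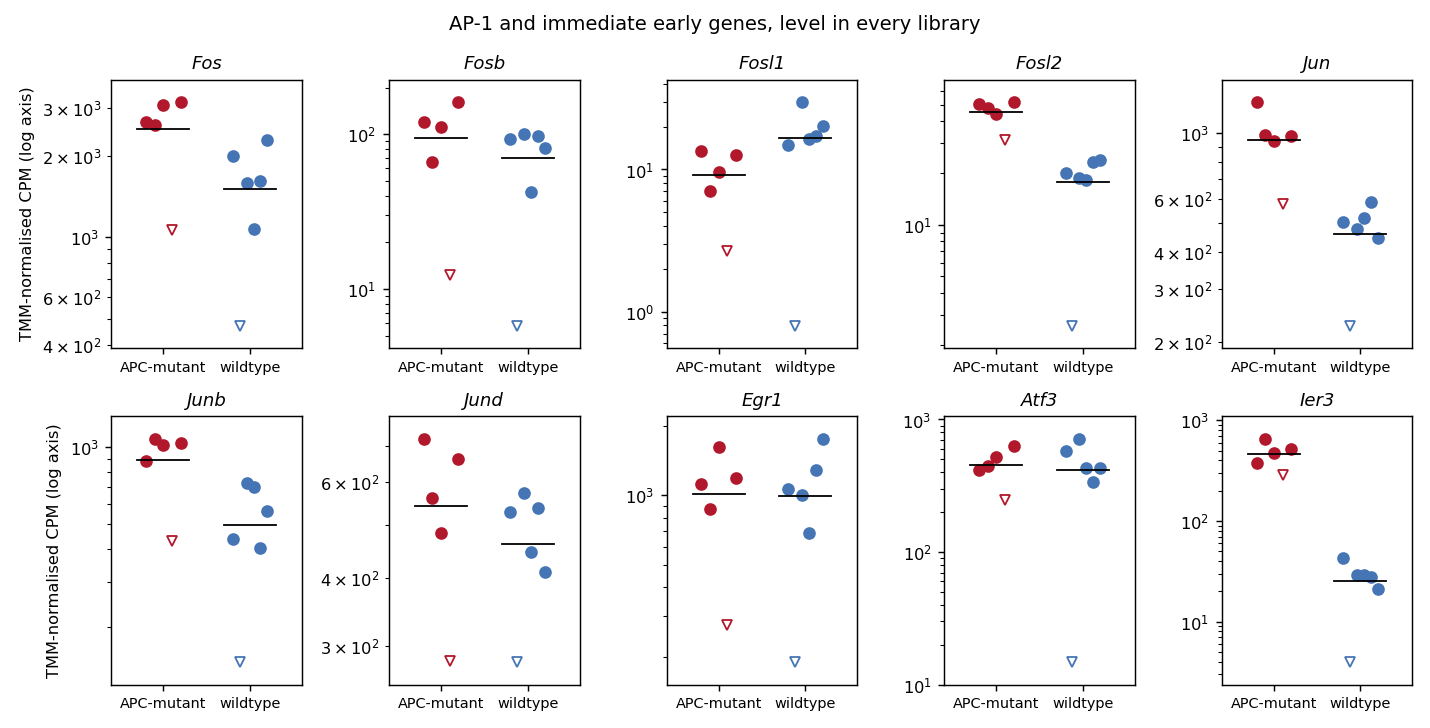
Level of each of the 10 genes in each library, in CPM on a log axis with its own range in each panel, APC-mutant left and wildtype right. Each point is 1 library, the line is the mean of the genotype and open triangles are APC-mutant 5 and wildtype 2, which hold the lowest value of their genotype in all 10 panels. Ier3 and Fosl2 are the panels in which the genotypes do not overlap.

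The levels also varied within each genotype, in the same 2 libraries for every member. APC-mutant 5 was the lowest APC-mutant library for 10 of 10 members, whereas it was the lowest for 25.3% of all genes tested. Wildtype 2 was the lowest wildtype library for 10 of 10 members, and for 22.2% of all genes tested. The median deviation of the members from their genotype's mean, on the log2(CPM + 1) scale, was -0.91 in APC-mutant 5 and between 0.10 and 0.39 in the other APC-mutant libraries. It was -2.14 in wildtype 2 and between 0.25 and 0.63 in the other wildtype libraries. The deficit was uneven: in wildtype 2 the median of the other wildtype libraries was 29.5 times higher for Atf3, 21.6 times for Fosl1 and 16.1 times for Fosb, but 1.88 times for Jund and 2.23 times for Jun. In APC-mutant 5 the median of the other APC-mutant libraries was 9.34 times higher for Fosb, 4.22 times for Egr1 and 4.15 times for Fosl1, but 1.59 times for Fosl2, 1.7 times for Jun and 1.74 times for Ier3. Fosb thus stood among the members furthest below, and Jun among those least below, in both libraries.

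**Figure D2:**
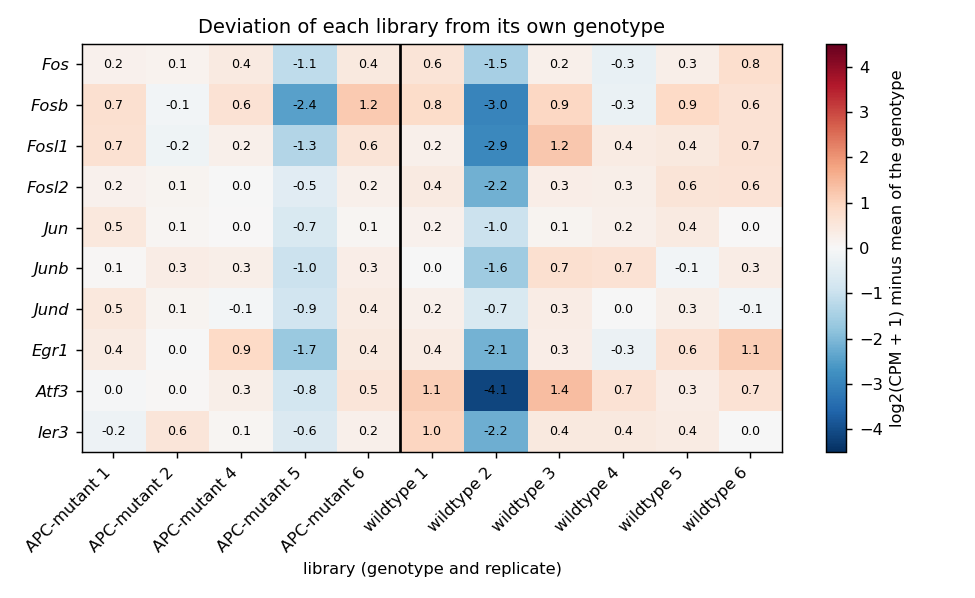
Deviation of each gene in each library from the mean of its own genotype, in log2(CPM + 1), with APC-mutant libraries left of wildtype libraries. The columns of APC-mutant 5 (median -0.91) and wildtype 2 (median -2.14) are negative for the 10 genes, and the medians of the other columns lie between 0.10 and 0.63.

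The same 2 libraries were low for other immediate early genes, a list of 38. APC-mutant 5 was the lowest of its genotype for 33 of them (86.8%) and wildtype 2 for 34 (89.5%). For 17 heat-shock and dissociation genes outside the members, APC-mutant 5 was the lowest for 4 and wildtype 2 for 8, and APC-mutant 2 was the lowest for 10. APC-mutant 5 was also the lowest for 9 of 10 macrophage and immune markers and 9 of 10 mesenchymal markers. Wildtype 2 was the lowest for 8 of 10 macrophage and immune markers, but for 1 of 10 mesenchymal markers. Of 26 other bZIP partners of AP-1, APC-mutant 5 was the lowest for 16 and wildtype 2 for 14. Of 24 textbook AP-1 target genes tested, APC-mutant 5 was the lowest for 17 and wildtype 2 for 11. The same libraries were the most deeply sequenced of their genotypes, with 27280761 counts in APC-mutant 5 and 25414443 in wildtype 2. The part of these differences in the low member levels was not tested. Because the 2 libraries were recognised from the members' own values, the counts of members and of the other lists are also given without them, as an alternative chosen after the values were seen; leaving out the lowest value of each genotype narrows the spread by construction. With 4 APC-mutant and 5 wildtype libraries, 5 members were higher (Fos joined the 4) and 1 was lower (Fosl1), where 30.3% of all genes tested were higher and 27.4% lower.

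Among the JUN genes, Jun and Junb were higher in APC-mutant cells and Jund did not pass the test. Jun, the founding AP-1 subunit and a target of the JNK kinases (ENSMUSG00000052684.6, GRCm39 chr4:94937271-94940459, minus strand, a single exon), was at 1269, 984, 939, 577 and 979 CPM in APC-mutant libraries. In wildtype libraries it was at 505, 226, 475, 519.9, 589 and 444 CPM. The genotypes overlapped by 1 library, since APC-mutant 5 lay just below wildtype 5. Jun averaged 949.7 ± 247 CPM in APC-mutant and 459.9 ± 124 CPM in wildtype (SD, n = 5 and 6), a ratio of 2.06, with a log2 fold change of 1.05 ± 0.22 (SE, adjusted p = 0.00109, edgeR). Jun passed in 21 of 21 alternatives. Of its exonic bases, 7.28% are shared with the antisense gene Junos, and the counting was without strand.

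Junb, a JUN protein that activates or restrains AP-1 targets depending on its partner (ENSMUSG00000052837.8, chr8:85701113-85705347, minus strand), was at 882, 1073, 1012, 433 and 1031 CPM in APC-mutant libraries. In wildtype libraries it was at 438, 146, 723, 699.6, 406 and 563 CPM. APC-mutant 5 lay below 4 of the 6 wildtype libraries, and the other APC-mutant libraries lay above them all. Junb averaged 886 ± 263 CPM in APC-mutant and 496 ± 215 CPM in wildtype (SD, n = 5 and 6), with a log2 fold change of 0.84 ± 0.33 (SE, adjusted p = 0.042, edgeR). The call passed in 11 of 21 alternatives, and leaving out any one of APC-mutant 1, 2, 4 or 6 or of wildtype 1, 5 or 6 ended it (log2 fold changes 0.76 to 0.87, edgeR adjusted p 0.0564 to 0.0869). It also ended with upper-quartile scaling and against either wildtype prefix alone, and stood at 0.82 ± 0.18 (edgeR adjusted p = 0.00166) without the 2 low libraries.

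Jund, the most constantly expressed JUN gene in many tissues (ENSMUSG00000071076.9, chr8:71151599-71153265, plus strand, a single exon), was at 720.5, 562, 483, 282 and 660.4 CPM in APC-mutant libraries. In wildtype libraries it was at 528, 280.1, 573, 447, 537 and 410.1 CPM. The genotypes overlapped over most of their range. The log2 fold change was 0.23 ± 0.22 (SE, 95% interval -0.25 to 0.71, adjusted p = 0.404, edgeR), so changes of up to 0.71 are inside the interval. Of its exonic bases, 52.6% are shared with Gm11175, and reads of the pair cannot be separated in these counts.

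The FOS genes differed among themselves: Fosl2 was higher in APC-mutant cells, the calls of Fos and Fosl1 changed with 1 or 2 libraries, and Fosb did not pass. Fosl2, also called FRA-2, a FOS protein without the strong activation domain of FOS (ENSMUSG00000029135.11, chr5:32293145-32315186, plus strand), was at 50.3, 48.1, 44.3, 31 and 51.8 CPM in APC-mutant libraries. In wildtype libraries it was at 20, 2.58, 18.8, 18.1, 23.1 and 23.7 CPM. Even APC-mutant 5, the lowest of its genotype, lay above every wildtype library. Fosl2 averaged 45.1 ± 8.39 CPM in APC-mutant and 17.7 ± 7.75 CPM in wildtype (SD, n = 5 and 6), a ratio of 2.55, with a log2 fold change of 1.35 ± 0.38 (SE, adjusted p = 0.00654, edgeR). It passed in 21 of 21 alternatives, between 0.96 and 1.68.

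Fos, the prototype immediate early gene (ENSMUSG00000021250.14, chr12:85520664-85524047, plus strand), had the highest CPM of the members in both genotypes. It was at 2671, 2588, 3072, 1058 and 3154 CPM in APC-mutant libraries, and at 1994, 470.4, 1591, 1068, 1608 and 2278 CPM in wildtype libraries. Apart from APC-mutant 5, each APC-mutant library lay above every wildtype library. Fos averaged 2509 ± 847 CPM in APC-mutant and 1502 ± 651 CPM in wildtype (SD, n = 5 and 6), with a log2 fold change of 0.74 ± 0.34 (SE, 95% interval 0.00 to 1.48, adjusted p = 0.0787, edgeR), which missed the threshold. It passed in 4 of 21 alternatives. These were DESeq2 (0.72, adjusted p = 0.0488), leaving out APC-mutant 5 (0.94, edgeR adjusted p = 0.0204), leaving out wildtype 6 (0.89, edgeR adjusted p = 0.0473), and leaving out both low libraries (0.75 ± 0.19, edgeR adjusted p = 0.00486).

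Fosl1, also called FRA-1 (ENSMUSG00000024912.7, chr19:5497575-5505974, plus strand), was the only member with a lower mean in APC-mutant cells. It was at 13.5, 7.03, 9.57, 2.67 and 12.6 CPM in APC-mutant libraries, and at 14.8, 0.795, 29.8, 16.3, 17.2 and 20.3 CPM in wildtype libraries. Apart from wildtype 2, each wildtype library lay above every APC-mutant library. The log2 fold change was -0.86 ± 0.59 (SE, 95% interval -2.12 to 0.39, adjusted p = 0.223, edgeR). It passed in 2 of 21 alternatives, at -1.12 without wildtype 2 (edgeR adjusted p = 0.0152) and at -0.88 ± 0.25 without both low libraries (edgeR adjusted p = 0.00939). The smallest values were -0.41 by limma-voom (adjusted p = 0.696) and -0.39 with the replicate number as a block (edgeR adjusted p = 0.651). Of the exonic bases of Fosl1, 57.2% overlap Ccdc85b, which was itself higher in APC-mutant (0.83 ± 0.17, edgeR adjusted p = 0.000725), so the Fosl1 counts can hold reads of a gene that moved the other way.

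Fosb, whose protein persists in some neurons as a truncated form (ENSMUSG00000003545.4, chr7:19036621-19043976, minus strand), was at 119, 65.7, 111, 12.3 and 161 CPM in APC-mutant libraries. In wildtype libraries it was at 93.6, 5.79, 100.2, 42, 97.9 and 81.8 CPM. The genotypes overlapped, and the spread within each was wider than the difference of the means. The log2 fold change was 0.42 ± 0.60 (SE, 95% interval -0.88 to 1.71, adjusted p = 0.577, edgeR), an interval that holds a change of over 1 log2 unit.

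Egr1 and Atf3, early factors outside the FOS and JUN families, did not pass the test in any of 21 alternatives. Egr1, a zinc-finger factor that responds to growth factors (ENSMUSG00000038418.8, chr18:34992876-34998037, plus strand), was at 1122, 875, 1614, 274 and 1193 CPM in APC-mutant libraries, and at 1059.7, 189, 1004, 684, 1289 and 1755 CPM in wildtype libraries. Its highest library was wildtype 6 and its lowest wildtype 2. The log2 fold change was 0.03 ± 0.46 (SE, 95% interval -0.97 to 1.02, adjusted p = 0.964, edgeR). Against the ROSAJC wildtype libraries alone it was 0.44, and against the ROSAE libraries alone -0.57.

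Atf3, a stress-induced repressor or activator that pairs with JUN proteins (ENSMUSG00000026628.14, chr1:190902493-190950236, minus strand), was at 419, 446, 519, 245 and 627 CPM in APC-mutant libraries. In wildtype libraries it was at 582, 14.7, 715, 431, 339.8 and 433 CPM. Wildtype 2 stood far below all other libraries, and the rest of the genotypes overlapped. The log2 fold change was 0.11 ± 0.57 (SE, 95% interval -1.11 to 1.32, adjusted p = 0.885, edgeR), and without the 2 low libraries it was 0.01 ± 0.21 (edgeR adjusted p = 0.979). The largest values among the alternatives were 0.71 by limma-voom (adjusted p = 0.45) and 0.64 with the replicate number as a block (edgeR adjusted p = 0.468).

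Ier3, a target of NF-kappa-B and a substrate of ERK kinases (ENSMUSG00000003541.7, chr17:36132576-36133815, plus strand), had the largest difference of the members. It was at 382, 657, 473, 288 and 526 CPM in APC-mutant libraries, and at 42.6, 3.94, 29.1, 29.2, 27.9 and 21.2 CPM in wildtype libraries. The lowest APC-mutant library, APC-mutant 5, was far above the highest wildtype library, wildtype 1. Ier3 averaged 465 ± 140.4 CPM in APC-mutant and 25.7 ± 12.7 CPM in wildtype (SD, n = 5 and 6), a ratio of 18.1, with a log2 fold change of 4.18 ± 0.43 (SE, adjusted p = 1.42e-06, edgeR). It passed in 21 of 21 alternatives, between 3.95 and 4.49. Of all genes tested, 95.8% had a lower log2 fold change than Ier3, against 84% for Fosl2, 80.6% for Jun and 75.4% for Fos.

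**Figure D3:**
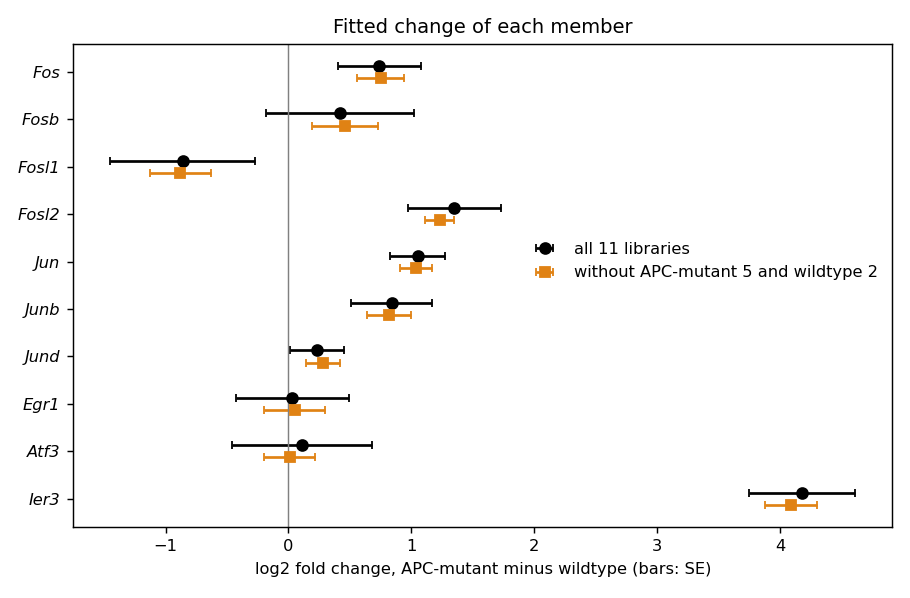
Log2 fold change, APC-mutant minus wildtype, of each of the 10 genes with its standard error. Black points use all 11 libraries and orange points leave out APC-mutant 5 and wildtype 2; Ier3 stands at 4.18 and 4.09, and the other genes lie between -0.88 and 1.35.

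To compare levels between genes, counts were divided by exonic length (CPM per kilobase). Fos had the highest level in both genotypes, at 1067 ± 360.3 CPM per kilobase in APC-mutant and 638 ± 277 in wildtype (SD, n = 5 and 6). Ier3 ranked 2 in APC-mutant (411 ± 124 CPM per kilobase) and 7 in wildtype (22.7 ± 11.2). In APC-mutant cells it was followed by Junb (385 ± 114), Jund (325 ± 103), Jun (298 ± 77.3), Egr1 (227 ± 109.8) and Atf3 (209 ± 65.2 CPM per kilobase), where each neighbour differed from the next by less than the larger of their SDs. In wildtype cells Fos was followed by Jund (277 ± 64.7), Egr1 (222 ± 119), Junb (215 ± 93.5), Atf3 (195 ± 111) and Jun (144 ± 39 CPM per kilobase), where neighbours after Jund were again closer than the larger of their SDs. Fosb, Fosl1 and Fosl2 had the lowest levels, at 4.46 to 15 CPM per kilobase in APC-mutant and 1.83 to 11.2 in wildtype.

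Within the FOS family, Fos made up nearly all of the summed level per kilobase, 97.3% to 98.6% in APC-mutant libraries and 95.4% to 99.2% in wildtype libraries. Fosl2 made up 0.464 ± 0.139% in APC-mutant and 0.27 ± 0.091% in wildtype (SD, n = 5 and 6), and Fosl1 0.394 ± 0.117% in APC-mutant and 1.17 ± 0.66% in wildtype. The JUN family was spread more evenly over its genes. Jund held 35.6%, 30.3%, 28.3%, 31.4% and 34.4% of the JUN level per kilobase in APC-mutant libraries, and 47.6%, 55.5%, 42.6%, 36.5%, 47.2% and 39.1% in wildtype libraries. Each APC-mutant library lay below each wildtype library in this share, although Jund's own CPM overlapped. Jun held 29.9 ± 3.11% in APC-mutant and 22.8 ± 2.79% in wildtype, with an overlap of 1 library (26.7% in APC-mutant 6, against 27% in wildtype 5). Junb held 38.1 ± 4.77% in APC-mutant and 32.4 ± 8.39% in wildtype. These shares are descriptions, with no test, and they move together because each set sums to the whole.

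**Figure D4:**
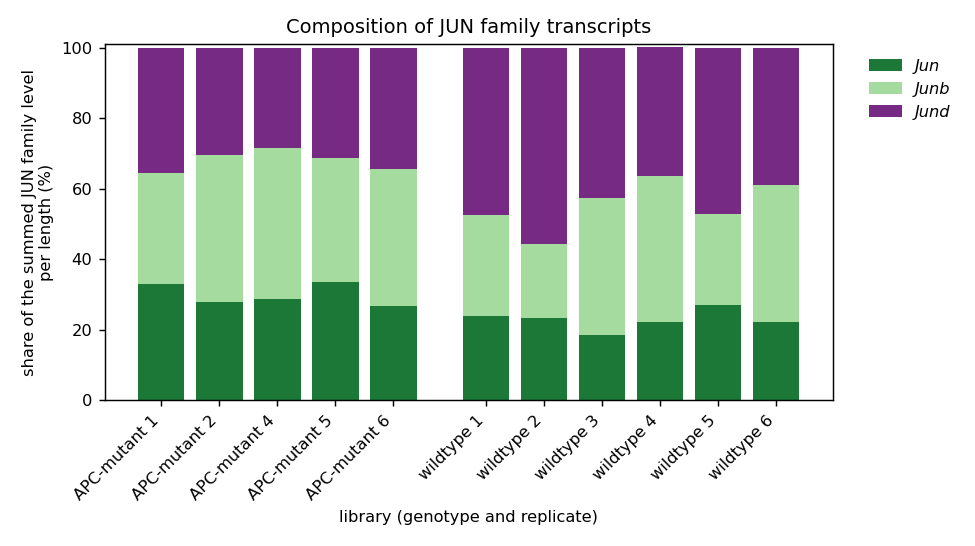
Share of Jun, Junb and Jund in the summed JUN level (CPM per kilobase) of each library, in percent, as stacked bars starting at 0, APC-mutant libraries left. Jund takes 28.3% to 35.6% in the APC-mutant bars and 36.5% to 55.5% in the wildtype bars.

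Each member was also set against Fos in the same library, a ratio added after the values were seen. The share of all genes whose ratio to Fos does not overlap between genotypes was not computed. In CPM alone, 43% of all genes tested did not overlap. The ratio of Ier3 to Fos (CPM over CPM) was 0.143, 0.254, 0.154, 0.272 and 0.167 in APC-mutant libraries, and 0.0214, 0.00837, 0.0183, 0.0273, 0.0174 and 0.00931 in wildtype libraries. The genotypes did not overlap in this ratio. Nor did they in the CPM of Ier3, at 288 to 657 in APC-mutant and 3.94 to 42.6 in wildtype. APC-mutant 5 held the highest APC-mutant ratio of Ier3 to Fos, while wildtype 2 held the lowest wildtype ratio. For the other 8 members the ratio to Fos overlapped between genotypes. Egr1 over Fos was 0.259 to 0.525 in APC-mutant and 0.401 to 0.801 in wildtype, and Jun over Fos was 0.305 to 0.546 in APC-mutant and 0.195 to 0.487 in wildtype.

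The gene profiles most like Fos and Jun were found by the root mean square difference of centred log2(CPM + 1) over the 11 libraries, among 12371 genes of mean 5 CPM or more. For Fos these were Dusp1 (0.212), a phosphatase that inactivates MAP kinases, Klf6 (0.284), a zinc-finger early gene, and Zswim6 (0.322). Dusp1 was higher in APC-mutant (0.81 ± 0.30, edgeR adjusted p = 0.03), with 446 CPM in APC-mutant 5 and 137 CPM in wildtype 2 as the lowest of each genotype. Because Dusp1 was picked for its likeness to Fos over these same libraries, both features follow largely from that choice. For Jun the nearest was its antisense partner Junos (0.061), which shares reads with it in these unstranded counts. It was followed by Nfat5 (0.174), the osmotic stress factor, and Tns1 (0.175), a focal adhesion protein.

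Of 38 other immediate early genes, 22 were higher (57.9%, against 30.7% of all genes), 5 were lower (13.2%, against 28.5%) and 11 did not pass, with a median log2 fold change of 0.87. Without the 2 low libraries 24 were higher and 6 lower. Gadd45g, a growth arrest gene, was the first of those that rose by p, at 416 ± 62 CPM in APC-mutant and 65.1 ± 14 CPM in wildtype (log2 fold change 2.67 ± 0.15, edgeR adjusted p = 4.24e-09). Sgk1, a serum- and glucocorticoid-induced kinase, was at 587 ± 171 CPM in APC-mutant and 43.1 ± 13.9 CPM in wildtype (3.77 ± 0.25, edgeR adjusted p = 1.85e-08). Gadd45g did not share the low libraries: it was highest in APC-mutant 5 (521 CPM) and in wildtype 2 (88.9 CPM). Npas4 and Arc, the genes that fell with the smallest p, are best known from neurons.

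Npas4, an activity-dependent factor of excitable cells, was at 0.692, 2.55, 1.6, 2.02 and 5.48 CPM in APC-mutant libraries and at 39.6, 6.44, 171, 135, 47.1 and 67.2 CPM in wildtype libraries. All APC-mutant libraries lay below all wildtype libraries, wildtype 2 included (-4.97 ± 0.75, edgeR adjusted p = 5.56e-05). Arc, a synaptic early gene, averaged 65.4 ± 21.4 CPM in APC-mutant and 274 ± 129 CPM in wildtype (-2.07 ± 0.40, edgeR adjusted p = 0.000448), with wildtype 2 the single wildtype library inside the APC-mutant range. The endocrine markers, which come from excitable hormone cells, stood at 0.0179% to 0.149% of counts in APC-mutant and 6.17% to 9.81% in wildtype beside these genes, and their part in the difference was not tested.

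Relatives of Egr1 and other genes of the IER name, named here after their values were seen, differed among themselves. Egr4 was lower (-2.21 ± 0.71, edgeR adjusted p = 0.0152), while Egr2 (-0.72 ± 0.64, adjusted p = 0.359) and Egr3 (-0.51 ± 0.76, adjusted p = 0.59, both edgeR) did not pass. Ier5 was higher, at 86.6 to 134 CPM in APC-mutant and 28.6 to 38.3 CPM in wildtype (1.77 ± 0.12, edgeR adjusted p = 2.39e-08). Ier5l was also higher (3.12 ± 0.27, edgeR adjusted p = 2.07e-07). Ier2 did not pass (0.62 ± 0.26, edgeR adjusted p = 0.0566). Nr4a1, an orphan nuclear receptor of the same early response, did not pass either (0.35 ± 0.51, edgeR adjusted p = 0.579).

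**Figure D5:**
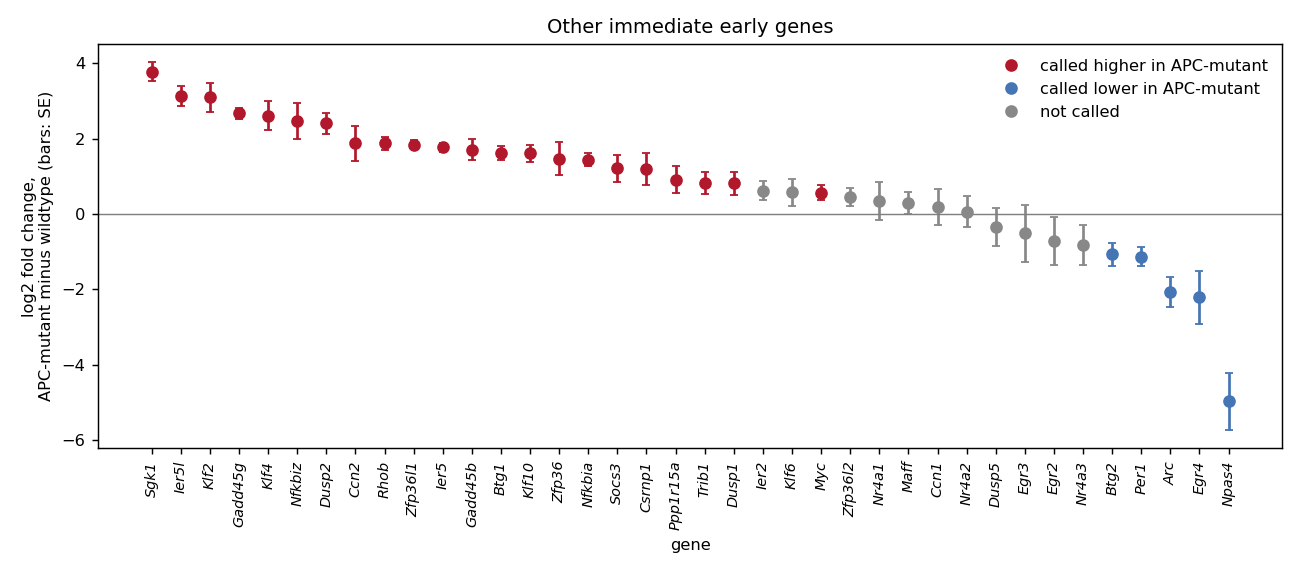
Log2 fold change, APC-mutant minus wildtype, of 38 other immediate early genes with standard errors, coloured by whether each was higher, lower or did not pass. Of the 38, 22 are higher, 5 are lower and 11 did not pass; Sgk1 (3.77) lies at the high end and Npas4 (-4.97) at the low end.

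The other bZIP partners of AP-1 included 26 genes, of which 13 were higher (50%, against 30.7% of all genes), 4 were lower (15.4%, against 28.5%) and 9 did not pass, with a median log2 fold change of 0.42. Without the 2 low libraries the counts were again 13 higher and 4 lower. Bach2, a repressor that competes with AP-1, was at 34.5 ± 5.9 CPM in APC-mutant and 7.43 ± 2.03 CPM in wildtype (2.21 ± 0.21, edgeR adjusted p = 5.23e-07). Creb3 fell by 0.61 (SE 0.10, edgeR adjusted p = 9.91e-05), with 20.8% of its exonic bases in other genes, and the stress factor Atf5 fell by 0.94 (SE 0.20, edgeR adjusted p = 0.000845). Batf and Batf3, immune-cell partners of JUN, were also higher (3.02 ± 0.38 and 2.94 ± 0.35, edgeR adjusted p = 1.01e-05 and 5.83e-06), named after their values were seen. Macrophage and immune markers, at 0.0265% to 0.174% of counts in APC-mutant and 0.00195% to 0.00565% in wildtype, moved in the same direction, and their part was not tested.

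Of 30 kinases and factors upstream of FOS and JUN, 14 were higher (46.7%, against 30.7% of all genes), 4 were lower (13.3%, against 28.5%) and 12 did not pass, with a median log2 fold change of 0.31. Without the 2 low libraries 14 were higher and 5 lower. Elk3, a partner of the serum response factor, was at 223 ± 29 CPM in APC-mutant and 19 ± 3.06 CPM in wildtype (3.55 ± 0.13, edgeR adjusted p = 1.33e-10). Rps6ka1, a kinase downstream of ERK, was at 80.7 ± 11 CPM in APC-mutant and 20.9 ± 5.54 CPM in wildtype (1.95 ± 0.17, edgeR adjusted p = 2.67e-07). Mapk10, the JNK kinase of neurons and endocrine cells, was lower, at 4.21 ± 1.47 CPM in APC-mutant and 81.6 ± 10.2 CPM in wildtype (-4.27 ± 0.21, edgeR adjusted p = 1.16e-09). Map2k7, which activates JNK, was lower by less (-0.56 ± 0.14, edgeR adjusted p = 0.00283), with 35.2% of its exonic bases in another gene. The ubiquitous JNK genes Mapk8 (0.36, edgeR adjusted p = 0.184) and Mapk9 (0.20, edgeR adjusted p = 0.152), chosen beside Mapk10 after the values were seen, did not pass. Elk3 is also expressed in endothelial cells, whose 10 markers summed to 0.409% to 0.627% of counts in APC-mutant and 0.00174% to 0.00994% in wildtype, and their part was not tested.

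Of 24 textbook AP-1 target genes tested, 19 were higher in APC-mutant cells (79.2%, against 30.7% of all genes), 1 was lower (4.17%, against 28.5%) and 4 did not pass, with a median log2 fold change of 2.80. Without the 2 low libraries 20 were higher and 1 lower. Mmp3, Mmp10 and Mmp13 had too few counts to be tested. At least Il6, Plau, Mmp9, Edn1 and Sphk1, all counted among the 19, passed the filter only through the APC-mutant libraries. In wildtype libraries Il6 was at 0 to 0.802 CPM and Plau at 0 to 0.3 CPM. Mmp9 was at 0.18 to 0.886 CPM there, Edn1 at 0 to 1.06 CPM and Sphk1 at 0.207 to 1.56 CPM. For such genes a call as higher was largely set by the filter, and the share of 79.2% and the median of 2.80 include them. Tgfb1, the growth factor, was at 42.9 ± 2.06 CPM in APC-mutant and 1.59 ± 0.828 CPM in wildtype (4.77 ± 0.27, edgeR adjusted p = 4.52e-09). Spp1, encoding the secreted protein osteopontin, was at 183 ± 83.2 CPM in APC-mutant and 13.7 ± 3.4 CPM in wildtype (3.74 ± 0.29, edgeR adjusted p = 7.18e-08), with 18.8% of its exonic bases in another gene. Ezr, which links membrane and cytoskeleton, was lower, at 165 ± 9.29 CPM in APC-mutant and 236 ± 37 CPM in wildtype (-0.51 ± 0.12, edgeR adjusted p = 0.00187). Many of these targets are also expressed by endothelial, immune and mesenchymal cells, whose markers were all higher in APC-mutant, and the part of those cells in these differences was not tested.

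Of 17 heat-shock and dissociation genes outside the members, 9 were higher (52.9%, against 30.7% of all genes), 2 were lower (11.8%, against 28.5%) and 6 did not pass, with a median log2 fold change of 0.38. Without the 2 low libraries the counts were again 9 higher and 2 lower. The list summed to 0.931% to 1.24% of counts in APC-mutant libraries and 0.755% to 0.927% in wildtype libraries, which did not overlap, and its part in the members' differences was not tested. The small heat-shock protein gene Hspb1 was at 599 ± 133 CPM in APC-mutant and 22.1 ± 12.5 CPM in wildtype (4.76 ± 0.40, edgeR adjusted p = 1.63e-07). Bag3, a co-chaperone, was at 37 ± 11.3 CPM in APC-mutant and 8.42 ± 1.55 CPM in wildtype (2.14 ± 0.21, edgeR adjusted p = 8.78e-07). The metallothionein genes Mt1 (-1.10 ± 0.18, edgeR adjusted p = 9.76e-05) and Mt2 (-0.56 ± 0.14, edgeR adjusted p = 0.00296) were lower, and 73.5% of the exonic bases of Mt2 overlap another gene. The sum of this list in the 2 libraries with low member levels was 1.02% in APC-mutant 5 and 0.816% in wildtype 2, inside the range of each genotype. That sum is weighted to abundant genes such as Hspa8 (2507 CPM in APC-mutant 5 and 2029 CPM in wildtype 2). Less abundant genes could still be low. Hspa1a was at 15.7 CPM in wildtype 2 and at 46.2 to 198 CPM in the other wildtype libraries. Wildtype 2 was the lowest of its genotype for 8 of the 17 genes, and APC-mutant 5 for 4. The members summed to 0.308% in APC-mutant 5 and 0.71% to 0.828% in the other APC-mutant libraries. They summed to 0.139% in wildtype 2 and 0.399% to 0.625% in the other wildtype libraries.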

How the data were processed

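The deposited values are raw counts of read pairs per gene, made by the authors with featureCounts 2.0.1 on the GENCODE vM33 annotation of GRCm39, per the file headers. Pairs were counted without strand, a pair overlapping several genes counted for each, and pairs mapping to several places were not counted, per the file headers, so that overlapping and antisense genes share reads. The submitters' processing notes name Trim Galore (version 0.6.5), STAR (version 2.7.9a), featureCounts and DESeq2, with no settings. Cells were sorted and frozen, and RNA was amplified (SMARTer), poly(A)-selected and sequenced on a NovaSeq, per the labels' protocols. Exonic length in bases was also deposited by the authors. The table's header names 30 alignment files, and the 11 with a column in the table are used here. Symbols were matched to 51948 of 56941 identifiers (91.2%, holding 98.61% of counts).

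Genes were filtered with filterByExpr, scaled by TMM and tested with the quasi-likelihood F test of edgeR 4.0.16 (R 4.3.3), at a Benjamini-Hochberg adjusted p under 0.05 over all genes tested. SE is the absolute log2 fold change over the square root of F, and 95% intervals use the t quantile of the fit. CPM use TMM-scaled library sizes. The code was tested on simulated data. All library pairs differed by more than sampling noise, with a chi-square per degree of freedom of 13.4 to 84.3 within a genotype. Alternatives were DESeq2 1.42.0, limma-voom 3.58.1, other scalings and filters, each wildtype prefix alone, a replicate block, each library left out and both low libraries left out.

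The members, lists and tests were chosen with earlier results of these data known. Named genes were the 10 members, Apc, the 2 genes of each direction with the smallest p in each of 5 lists, and the 3 profiles nearest to Fos and to Jun; others are said to be chosen after their values were seen. One gene that the rule names is not reported here. Overlap with other genes is given where at least 10% of exonic bases are shared, and for Jun. Promoters are RefSeq windows on GRCm38.p6, while gene coordinates follow the authors' table and GRCm39. The windows of Fosl1 and Egr1 were not used here.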

Additional observations from a re-analysis of the deposited data

Results flagged for a closer look

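For 36 named genes, each genotype was searched for a library standing apart from the others, by the gap to the nearest library over the whole range, in 72 groups of libraries. Chance gives such a flag in about 1 of 20 groups, and 5 were found, not far from that rate. Each of the 5 was the lowest library of its genotype, APC-mutant 5 or wildtype 2, the same libraries that held the lowest value of all 10 members. Fos and Fosl2 are members themselves, and Klf6 and Junos were named for profiles near Fos and Jun. Their flags in these libraries therefore add no separate evidence.

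Fos stood at 1058 CPM in APC-mutant 5, where the nearest APC-mutant library was at 2588 CPM (gap over range 0.73). Fosl2 stood at 2.58 CPM in wildtype 2, with the nearest wildtype library at 18.1 CPM (0.737). Klf6, near Fos in profile, stood at 75.3 CPM in wildtype 2, with the nearest wildtype library at 344 CPM (0.677). Junos, the antisense partner of Jun, stood at 45.4 CPM in wildtype 2, with the nearest at 86.8 CPM (0.65). Tgfb1 stood at 39.3 CPM in APC-mutant 5, with the nearest APC-mutant library at 43.4 CPM (0.748), a small gap in a narrow range. These 2 libraries are the most deeply sequenced of their genotypes (27280761 counts in APC-mutant 5 and 25414443 in wildtype 2). The labels give no difference in handling for them, and the cause was not tested.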

How the results depend on the processing

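Jun, Fosl2 and Ier3 kept their direction and their call in all 21 alternatives, and Fosb, Jund, Egr1 and Atf3 passed in none. Upper-quartile scaling moved the median log2 fold change of all genes to -0.17, against 0.02, and the share of higher genes among those called to 40.8%, against 51.9%, so values under it read against that shift. Under it Junb was at 0.65 (no longer called), Egr1 at -0.16 and Atf3 at -0.08, the bZIP, upstream and heat-shock lists had 7, 8 and 4 genes called lower, and the median of the upstream list was 0.12. Against ROSAJC wildtype libraries alone Junb was at 0.78 (not called) and the bZIP median at 0.69. Against ROSAE alone Junb was at 0.88 (not called), Egr1 at -0.57, and 2 bZIP genes were lower. DESeq2 called Fos (0.72). Leaving out both low libraries called Fos (0.75) and Fosl1 (-0.88), the 1 member then lower. Leaving out 1 library at a time gave ranges of 0.55 to 0.94 for Fos, -1.12 to -0.62 for Fosl1, 0.64 to 1.01 for Junb, -0.20 to 0.27 for Egr1, -0.15 to 0.32 for Atf3 and -0.08 to 0.01 for Apc. It also gave 0 to 1 members lower, 2 to 4 bZIP genes lower, a bZIP median of 0.38 to 0.65 (highest without wildtype 5) and an upstream median of 0.22 to 0.37. Without length correction the Fosl2 share of the FOS family differed by 0.77 percentage points, against 0.19, since Fosl2 has the longest exonic length of the family.

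Shared replicate numbers gave no sign of pairing: same-numbered libraries had correlations of their deviations between -0.151 and 0.0492. Whether the numbers pair the libraries is not settled by these values. With the replicate number as a block, 10711 genes were called, against 12218, no member call changed, Apc was at 0.00 and the upstream median was 0.39. Of 546 values for 26 other named genes, 10 lost a call (Dusp1, Zswim6 and Nfat5), 1 gained one (Klf6) and 2 changed sign (Apc). For all values that moved, the cause was not tested. Every member lay above the 3-count floor of its library, and the intervals of Egr1, Atf3 and Fosb reach beyond 1 log2 unit.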
